A study of Homo sapiens with 36 samples.

Results

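The 32 genes described here act in G2 phase and mitosis, and were found by their symbol in the probe annotation. All 32 were present among the 11048 genes tested, and the probe of each was above background (detection p under 0.01) on all 36 arrays. Messenger RNA was measured on Illumina BeadChips in MCF-10A, an immortalised line of human breast epithelium that is not transformed, in 12 groups of 3 biological replicates. In 10 lines a short hairpin RNA had been introduced with lentiviral particles and stable cells selected: shATM-1 and shATM-3 against ATM, shATR-3 and shATR-4 against ATR, shCHK1-3 and shCHK1-4 against CHEK1, shCHK2-1 and shCHK2-2 against CHEK2, and sh53BP1-1 and sh53BP1-2 against TP53BP1. The controls were shControl cells, which carried a scrambled hairpin, and wild type cells, labelled as mock and without a hairpin. Each hairpin is thus represented by 1 stable line, and its 3 replicates do not sample other lines made with that hairpin. In every group 200000 cells had been plated on a 10 cm dish and were collected 48 hours later. The comparisons ask how these genes stood in each line relative to each of the controls, and whether both hairpins of a target gave the same result.

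Entry into mitosis is driven by cyclin B bound to the kinase CDK1, which the phosphatase CDC25C switches on. Polo and Aurora kinases then build the spindle, the spindle checkpoint delays anaphase until every kinetochore is attached, and the anaphase-promoting complex ends mitosis by marking cyclin B and securin for destruction. Most of these genes are repressed by the DREAM complex in resting and G1 cells and activated later in the cycle by MYBL2 and FOXM1, through a cell cycle genes homology region (CHR) and CCAAT boxes near the start of transcription, and their messenger RNA is widely used as a measure of proliferation. ATM, ATR, CHEK1 and CHEK2 encode kinases of the DNA damage signal, which can stop cells before mitosis, and TP53BP1 encodes an adaptor of that signal.

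Promoter windows, shown because the members share letters that were not used to choose them, were taken from RefSeq (build GRCh38.p14) and run from 250 bases before to 50 bases after each annotated start. Of the 32 members, 26 had an entry, and AURKA, BIRC5, TTK, UBE2C, TPX2 and FOXM1 are named only. The 130 bases before the start are printed for 5 members with CHR letters there (CCNB2, PLK1, CDC20, HMMR and PRC1) and for 3 without them (CCNB1, CENPF and CKAP2). Other forms of the CHR than TTTGAA were not searched, so a window without these letters is not shown to lack a CHR. Capitals mark TTTGAA or its reverse complement TTCAAA (the CHR letters) and CCAAT or its reverse complement ATTGG.
CCNB2: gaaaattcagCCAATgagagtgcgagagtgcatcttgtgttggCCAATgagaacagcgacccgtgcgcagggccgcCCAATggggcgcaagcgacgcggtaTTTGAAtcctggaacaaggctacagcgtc
PLK1: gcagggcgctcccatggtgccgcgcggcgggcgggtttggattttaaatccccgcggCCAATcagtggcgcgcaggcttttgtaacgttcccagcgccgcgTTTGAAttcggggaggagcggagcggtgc
CDC20: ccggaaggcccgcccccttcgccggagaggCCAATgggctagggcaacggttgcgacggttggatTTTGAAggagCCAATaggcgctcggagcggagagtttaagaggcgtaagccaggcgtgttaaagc
HMMR: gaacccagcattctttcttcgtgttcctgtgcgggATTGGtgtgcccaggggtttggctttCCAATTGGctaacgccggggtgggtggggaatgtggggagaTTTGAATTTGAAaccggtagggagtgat
PRC1: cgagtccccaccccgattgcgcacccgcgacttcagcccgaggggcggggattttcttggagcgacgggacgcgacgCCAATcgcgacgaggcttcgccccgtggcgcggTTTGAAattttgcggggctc
CCNB1: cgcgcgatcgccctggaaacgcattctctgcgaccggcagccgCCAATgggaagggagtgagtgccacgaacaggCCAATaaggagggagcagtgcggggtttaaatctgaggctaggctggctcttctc
CENPF: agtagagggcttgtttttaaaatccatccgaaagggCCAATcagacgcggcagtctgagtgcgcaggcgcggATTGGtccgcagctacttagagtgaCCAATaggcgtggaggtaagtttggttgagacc
CKAP2: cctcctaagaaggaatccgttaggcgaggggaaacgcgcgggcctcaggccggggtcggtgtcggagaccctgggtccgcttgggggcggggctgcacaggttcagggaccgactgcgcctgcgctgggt

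These windows lie, in build GRCh38.p14, for CCNB2 at chr15:59105016-59105145 (plus strand), PLK1 at chr16:23678759-23678888 (plus strand), CDC20 at chr1:43358851-43358980 (plus strand), HMMR at chr5:163460502-163460631 (plus strand), PRC1 at chr15:90994536-90994665 (minus strand), CCNB1 at chr5:69167020-69167149 (plus strand), CENPF at chr1:214603065-214603194 (plus strand) and CKAP2 at chr13:52455858-52455987 (plus strand). CHR letters stood in the windows of 16 of 26 members (61.5%), and in those of 18.2% of all 27305 genes with an entry. CCAAT letters stood in 22 of 26 members (84.6%) and in 39.7% of all genes, and both motifs in 15 of 26 members (57.7%) and 7.26% of all genes. In 12 of the 26 members the CHR letters lay within the 100 bases before the start, and the share of all genes with this was not computed. The motifs were searched on both strands, a CCAAT and an ATTGG copy may overlap, as in HMMR, and a match is a description of the letters only.

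**Figure D1:**
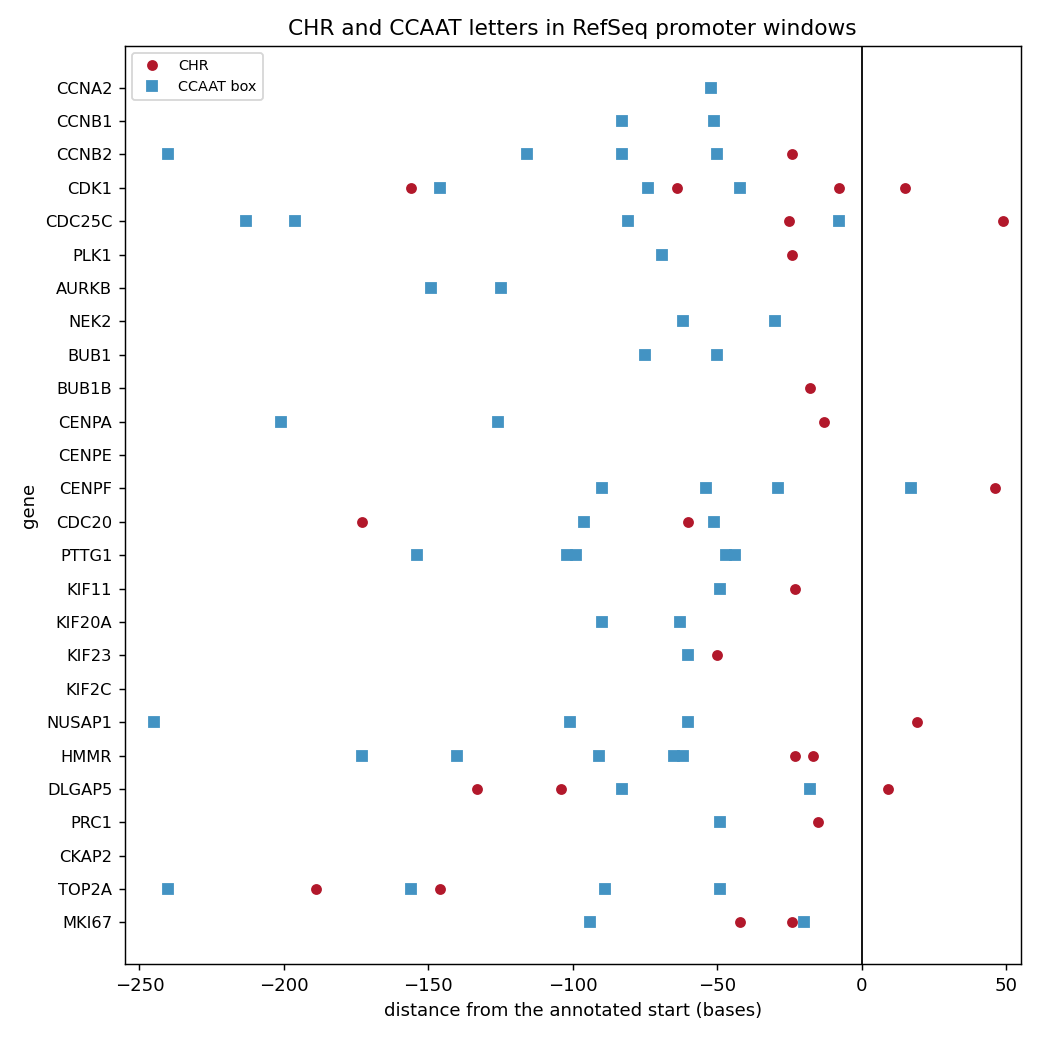
Position of CHR and CCAAT letters in the RefSeq promoter windows of the 26 members with an entry, as distance in bases from the annotated start (horizontal axis), 1 gene per row. Red circles are CHR letters (16 members) and blue squares CCAAT boxes (22 members), and most marks lie within the 100 bases before the start.

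Before the comparisons, some groups stood apart from their label. MTAP, CDKN2A and CDKN2B, neighbours in a region that MCF-10A is known to lack, were above background on all 3 arrays of each of the 8 lines against ATM, ATR, CHEK1 and CHEK2 (here called the kinase lines) and on none of the other 12 arrays. The kinase lines therefore differ from both controls in more than the hairpin, and hairpin and cell background cannot be told apart in them. The same lines also differed by chromosome: against wild type the median gene of chromosome 20 was 0.44 to 0.67 higher on the log2 scale and that of chromosome 16 changed by -0.53 to -0.42, while both medians were between -0.02 and 0.00 in the sh53BP1 lines. Smaller shifts stood on other chromosomes, among them 4 (-0.38 to -0.06), with CCNA2 and CENPE, and 13 (0.09 to 0.30), with CKAP2. Chromosomes 7 (-0.36 to -0.25) and 8 (-0.34 to -0.26), which hold no member, were shifted too. Target mRNA relative to shControl was 53.8% and 48.8% for ATM in shATM-1 and shATM-3, 84% and 82.9% for CHEK1 in shCHK1-3 and shCHK1-4, 50.2% and 93.2% for CHEK2 in shCHK2-1 and shCHK2-2, and 16% and 19.8% for TP53BP1 in sh53BP1-1 and sh53BP1-2. CHEK1 was itself lower in shControl, at 59.7% of wild type (log2 change -0.74, SE 0.095, adjusted p = 2.78e-07). Relative to wild type it stood at 50.1% in shCHK1-3 and 49.5% in shCHK1-4, while the other 8 lines had 175% to 255% of the shControl level. Relative to wild type, ATM stood at 69.1% and 62.8%, CHEK2 at 44.6% and 82.8%, and TP53BP1 at 20.7% and 25.7% in the lines against them, in the same order. The ATR probe was not above background on any array and checks nothing. Basal epithelial markers with a probe (KRT5, KRT14, ITGB4, EGFR and CDH1) were above background on all 36 arrays, and of 4 leukocyte markers with a probe, CD68 was above background on all 36, ITGAM on 1, and PTPRC and CD3E on none. Of the luminal markers, KRT8, KRT18 and FOXA1 were above background on all 36 arrays, GATA3 on 23, KRT19 on 12, ESR1 on 5 and PGR on none. Each array had between 33.5% and 38.3% of all probes above background.

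In shControl cells 30 of the 32 members were lower than in wild type cells and 0 were higher, with the same counts of 30 and 0 at an unadjusted p of 0.05. Over all 11048 genes 16% were lower and 14.5% higher in the same comparison (limma, adjusted p of 0.05). The median member changed by -0.63 on the log2 scale, where the median of all genes was -0.01. For each of the 30 the 3 shControl arrays lay below the 3 wild type arrays, which was so for 22.5% of all genes. TPX2, which activates Aurora A and nucleates spindle microtubules, and the microtubule depolymerase KIF2C changed most, to 48.12% and 49.57% of their wild type level. In bulk RNA, fewer cells in G2 and mitosis and less of these messages per cell cannot be told apart. The fibroblast markers also moved with this comparison: their summed signal was 850 to 895 intensity units on shControl arrays and 203 to 230 on wild type arrays, with 2 to 3 and 0 to 1 of 8 markers above background on an array. Over all 36 arrays THY1 was above background on 24, DCN on 5, LUM on 3, COL1A1 and COL1A2 on 2 each, and COL3A1, PDGFRA and PDGFRB on none. The summed signal of 7 luminal markers was 3698 to 3956 on shControl arrays and 6298 to 6465 on wild type arrays, and that of 5 basal markers 5382 to 6376 and 9309 to 9387. Their part in the result was not tested.

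All 5 genes of mitotic entry were lower in shControl. CCNB1, the cyclin that takes CDK1 into mitosis, read 9.58 ± 0.09 in shControl cells and 10.48 ± 0.10 in wild type cells (mean ± SD, n = 3 each; log2 change -0.90, SE 0.092, adjusted p = 4.56e-09). CDK1, the mitotic kinase itself, read 10.81, 10.97 and 11.02 on the shControl arrays, against 11.33, 11.24 and 11.21 on the wild type arrays (log2 change -0.33, SE 0.104, adjusted p = 0.0151). Both sets of arrays were separate, and the change of CDK1 was the smallest of the group, while CCNA2 (cyclin A2) changed by -0.50, CCNB2 (cyclin B2) by -0.57 and CDC25C by -0.62. The 5 kinases and passenger proteins were lower as well. PLK1, the Polo kinase of spindle poles and kinetochores, read 7.68, 7.07 and 7.53 on the shControl arrays, against 8.47, 8.23 and 8.09 on the wild type arrays (log2 change -0.83, SE 0.126, adjusted p = 5.4e-06). AURKA, the centrosome kinase Aurora A, read 10.13, 9.98 and 10.13 on the shControl arrays, against 10.49, 10.69 and 10.73 on the wild type arrays (log2 change -0.55, SE 0.094, adjusted p = 3.07e-05). No shControl array reached a wild type array for either kinase, and the centrosome kinase NEK2 (-0.81), AURKB (Aurora B, -0.56) and its partner BIRC5 (survivin, -0.62) were lower too.

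All 6 kinetochore and checkpoint genes were lower in shControl, with a median log2 change of -0.75. BUB1B, the checkpoint protein BUBR1, read 7.60, 7.51 and 6.89 on the shControl arrays, against 8.25, 8.15 and 7.95 on the wild type arrays (log2 change -0.78, SE 0.152, adjusted p = 0.000166). CENPF, a large kinetochore protein, read 7.95, 7.87 and 7.56 on the shControl arrays, against 8.62, 8.86 and 8.65 on the wild type arrays (log2 change -0.92, SE 0.136, adjusted p = 3.67e-06). The lowest wild type array stood above the highest shControl array for both, and BUB1 (-0.73), the checkpoint kinase TTK (-0.59), the centromeric histone CENPA (-0.77) and the kinetochore motor CENPE (-0.53) were lower. Of the 3 genes of anaphase ubiquitination 2 were lower. CDC20, the activator of the anaphase-promoting complex, read 11.60, 11.64 and 11.57 on the shControl arrays, against 12.46, 12.26 and 12.43 on the wild type arrays (log2 change -0.78, SE 0.080, adjusted p = 4.35e-09). UBE2C, its ubiquitin-conjugating enzyme, read 11.32, 11.36 and 11.60 on the shControl arrays, against 12.12, 12.08 and 12.19 on the wild type arrays (log2 change -0.71, SE 0.083, adjusted p = 6.15e-08). The groups were separate for both of these genes. PTTG1, securin, read 12.63, 12.68 and 12.93 on the shControl arrays, against 12.73, 12.81 and 12.72 on the wild type arrays (log2 change -0.01, SE 0.090, adjusted p = 0.966). Its arrays overlapped and it was not called, and the other probe of PTTG1 changed by -0.03. Since PTTG1 has near-identical copies in the genome, its probe may read more than 1 gene.

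Spindle motors and assembly factors made up 10 members, of which 9 were lower in shControl. TPX2, the Aurora A activator, read 8.07, 8.09 and 8.14 on the shControl arrays, against 8.97, 9.07 and 9.43 on the wild type arrays (log2 change -1.06, SE 0.136, adjusted p = 3.56e-07). KIF2C, the depolymerase, read 8.04, 8.18 and 7.88 on the shControl arrays, against 9.02, 9.15 and 8.97 on the wild type arrays (log2 change -1.01, SE 0.089, adjusted p = 1.91e-10). These were the largest changes, with the highest shControl array far below the lowest wild type array, and KIF11 (-0.69), the motor that separates the poles, the cytokinesis motors KIF20A (-0.58) and KIF23 (-0.73), PRC1 (-0.65), DLGAP5 (-0.72), NUSAP1 (-0.42) and HMMR (-0.38) were lower by less. CKAP2, a microtubule-associated protein, read 9.23, 9.51 and 9.19 on the shControl arrays, against 9.62, 9.48 and 9.21 on the wild type arrays (log2 change -0.12, SE 0.168, adjusted p = 0.635). CKAP2 arrays of both groups overlapped, and it was not called. The remaining 3 members were lower. FOXM1, the transcription factor of G2 genes, read 7.78, 7.72 and 7.32 on the shControl arrays, against 8.22, 8.58 and 8.37 on the wild type arrays (log2 change -0.79, SE 0.201, adjusted p = 0.00315). TOP2A, topoisomerase II alpha, read 10.72, 10.89 and 10.84 on the shControl arrays, against 11.26, 11.22 and 11.17 on the wild type arrays (log2 change -0.40, SE 0.101, adjusted p = 0.00287). MKI67, the Ki-67 protein, read 5.91, 5.96 and 6.26 on the shControl arrays, against 6.57, 6.30 and 6.84 on the wild type arrays (log2 change -0.53, SE 0.181, adjusted p = 0.0258). For MKI67 the groups were separate by a small gap, with the highest shControl array at 6.26 and the lowest wild type array at 6.30.

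Other lists of cell cycle genes were read against the same background, 16% of all genes lower and 14.5% higher. Except for the DREAM list, none of the lists here had a gene higher, also at an unadjusted p of 0.05. Of 35 other kinetochore genes 26 were lower in shControl than in wild type and 0 higher, with a median log2 change of -0.64. The largest change was that of SKA2 (-1.39, SE 0.088, adjusted p = 1.17e-13). Among 27 other spindle and cytokinesis genes 23 were lower and 0 higher, and the motor KIFC1 led with -1.33. Condensin and cohesin genes were lower for 8 of 13, mitotic entry regulators for 8 of 14, with the CDK1-inhibiting kinase PKMYT1 at -1.16, and centriole duplication genes for 4 of 6, with PLK4 at -0.75. Of 13 subunits and regulators of the anaphase-promoting complex 3 were lower, a share not far from the background, the inhibitor FBXO5 most (-0.57). Of 13 DREAM and MYBL2 complex genes 5 were lower, with RBL1 at -0.99, and 2 were higher, with E2F5 at 0.83. MYBL2 itself was not among them, as it had no probe that passed the filter. DNA replication and G1/S genes, which act before mitosis, were lower for 25 of 29 and higher for 0, with a median of -0.57 and TK1 at -0.97. The inhibitor CDKN1A (p21) was higher in shControl, with a mean of 12.98 and 12.51 in wild type (log2 change 0.47, SE 0.080, adjusted p = 3.21e-05).

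**Figure D2:**
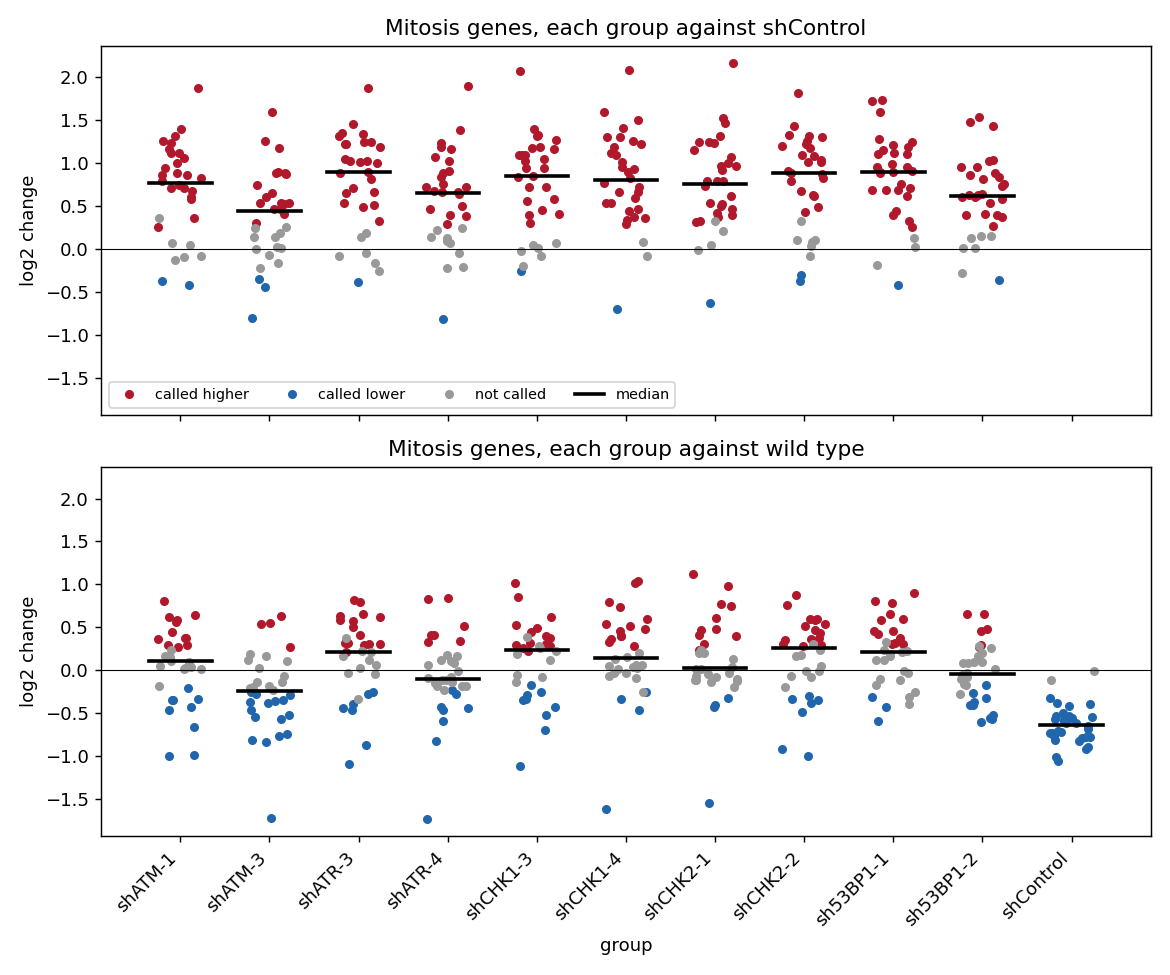
Log2 change of the 32 members in each group against shControl (upper panel) and wild type (lower panel), 1 point per gene, red for called higher, blue for called lower and grey for not called, with the median as a black bar. Medians against shControl lie between 0.44 and 0.90, those of the 10 lines against wild type between -0.24 and 0.26, and that of shControl against wild type at -0.63.

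Against shControl, all 10 lines had most members higher. In shATM-1, 24 of 32 were higher (background 33.6%) and 2 lower (background 33.1%), with a median log2 change of 0.77. For shATM-3, 18 of 32 were higher (background 30.5%) and 3 lower (background 27.8%), with a median log2 change of 0.44. With shATR-3, 25 of 32 were higher (background 33.4%) and 1 lower (background 34.1%), with a median log2 change of 0.89. Among members in shATR-4, 22 of 32 were higher (background 31.6%) and 1 lower (background 28.5%), with a median log2 change of 0.65. In shCHK1-3, 25 of 32 were higher (background 32.9%) and 1 lower (background 34.3%), with a median log2 change of 0.84. For shCHK1-4, 29 of 32 were higher (background 32.6%) and 1 lower (background 29.8%), with a median log2 change of 0.80. In the line shCHK2-1, 27 of 32 were higher (background 31.9%) and 1 lower (background 30.4%), with a median log2 change of 0.76. With shCHK2-2, 24 of 32 were higher (background 33.3%) and 2 lower (background 35.1%), with a median log2 change of 0.88. In sh53BP1-1 cells, 28 of 32 were higher (background 29.1%) and 1 lower (background 30.5%), with a median log2 change of 0.90. In sh53BP1-2 cells, 25 of 32 were higher (background 27.8%) and 1 lower (background 28.4%), with a median log2 change of 0.61. The 10 comparisons share the 3 shControl arrays, so that they are not separate measurements of 1 effect. For 23 of the 32 members shControl was the lowest of the 12 group means, which was so for 17.2% of all genes. The summed fibroblast markers were lower in every line, 188 to 598 intensity units on the line arrays and 850 to 895 on the shControl arrays, and their part in the result was not tested.

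In all 10 lines, 17 members were higher than in shControl, where 8.7% of all genes were. TPX2 changed by 1.54 to 2.17, AURKA by 0.84 to 1.60 and CDC20 by 0.89 to 1.35. FOXM1 changed by 0.65 to 1.26 and PLK1 by 0.47 to 1.73. Other members did not follow: MKI67 passed the test in 1 line (shCHK1-4, 0.44), NUSAP1 was higher in 1 line and lower in 1, and PTTG1 was higher in 2 and lower in 6. CENPF was higher in both sh53BP1 lines (1.11 and 0.76) and in none of the kinase lines, 4 of which had it lower.

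Against wild type the members of each line fell on both sides. In shATM-1, 12 of 32 were higher (background 31.5%) and 9 lower (background 32.4%), with a median log2 change of 0.11. In shATM-3, 4 of 32 were higher (background 28.2%) and 16 lower (background 27.9%), with a median log2 change of -0.24. In shATR-3, 15 of 32 were higher (background 31.2%) and 7 lower (background 33.6%), with a median log2 change of 0.22. In shATR-4, 7 of 32 were higher (background 29.1%) and 8 lower (background 27.8%), with a median log2 change of -0.10. In shCHK1-3, 14 of 32 were higher (background 31%) and 9 lower (background 33.9%), with a median log2 change of 0.24. In shCHK1-4, 14 of 32 were higher (background 30.3%) and 4 lower (background 29.4%), with a median log2 change of 0.14. In shCHK2-1, 11 of 32 were higher (background 30.2%) and 4 lower (background 30.2%), with a median log2 change of 0.03. In shCHK2-2, 15 of 32 were higher (background 31.8%) and 7 lower (background 34.5%), with a median log2 change of 0.26. In sh53BP1-1, 13 of 32 were higher (background 23.8%) and 3 lower (background 27.9%), with a median log2 change of 0.22. In sh53BP1-2, 6 of 32 were higher (background 21.5%) and 10 lower (background 25.3%), with a median log2 change of -0.04. In shATM-3, shATR-4 and sh53BP1-2 the members called higher were fewer than the background share. The spread of the log2 changes over members (SD) was 0.35 to 0.49 in the 10 lines against wild type, and 0.23 in shControl against wild type. Over all genes it was 0.56 to 1.10 and 0.51, so it was wider in the lines there too. With only the compared groups in the fit, shCHK1-3 had 9 members higher and 5 lower than wild type.

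**Figure D3:**
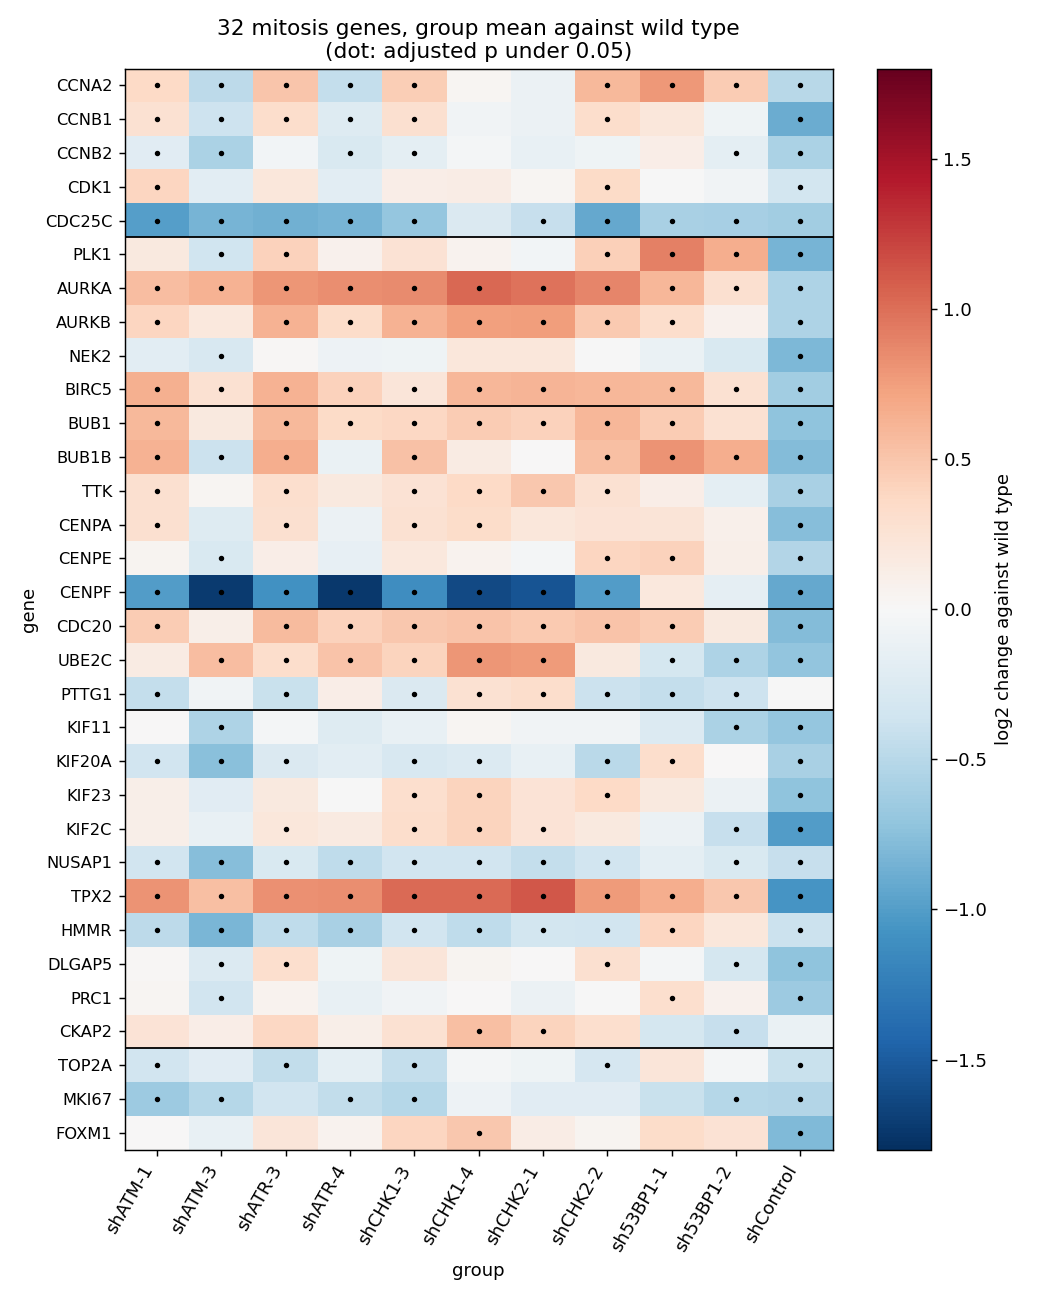
Mean log2 change against wild type (colour, red higher and blue lower) for the 32 members (rows, ordered by role) in the 10 lines and shControl (columns), with a dot where the adjusted p passed. The shControl column carries 30 dots, all on blue cells, AURKA and TPX2 are red in all 10 lines, and CENPF is blue in the 8 kinase lines.

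AURKA, TPX2 and BIRC5 were higher than in wild type in all 10 lines, where 5.09% of all genes were. TPX2 was read by 1 probe, so the mean of all probes could not change its values. It kept every one of these calls under the alternatives tried. The call of AURKA ended in sh53BP1-2 (0.21 to 0.29), and that of BIRC5 in shATM-3, shCHK1-3 and sh53BP1-2 (0.11 to 0.24), under some of them or with 1 array left out. AURKA read between 11.16 and 11.75 (median 11.46) on the 24 arrays of the kinase lines and between 10.81 and 11.31 (median 11.14) on the 6 of the sh53BP1 lines, against 10.49, 10.69 and 10.73 in wild type. Every line array stood above every wild type array, and the log2 changes ran from 0.29 (SE 0.094, adjusted p = 0.0128) in sh53BP1-2 to 1.04 (SE 0.094, adjusted p = 7.3e-11) in shCHK1-4. TPX2 read between 9.68 and 10.58 (median 10.04) in the kinase lines and between 9.61 and 9.89 (median 9.70) in the sh53BP1 lines, against 8.97, 9.07 and 9.43 in wild type, with changes of 0.48 to 1.12. AURKA and TPX2 lie on chromosome 20, like UBE2C, and the median gene of that chromosome was also higher in the kinase lines, by 0.44 to 0.67. In the sh53BP1 lines, where that median was 0.00, AURKA was still higher by 0.60 and 0.29 and TPX2 by 0.66 and 0.48, while UBE2C changed by -0.31 and -0.56. For the kinase lines, the part of the chromosome in the result was not tested. BIRC5, on chromosome 17, changed by 0.22 to 0.64, and AURKB, BUB1 and CDC20 were higher in 8 of 10 lines each. CDC20 read between 12.40 and 13.03 (median 12.87) in the kinase lines and between 12.51 and 12.91 (median 12.67) in the sh53BP1 lines, against 12.46, 12.26 and 12.43 in wild type. The lines without a call for it were shATM-3 and sh53BP1-2.

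**Figure D4:**
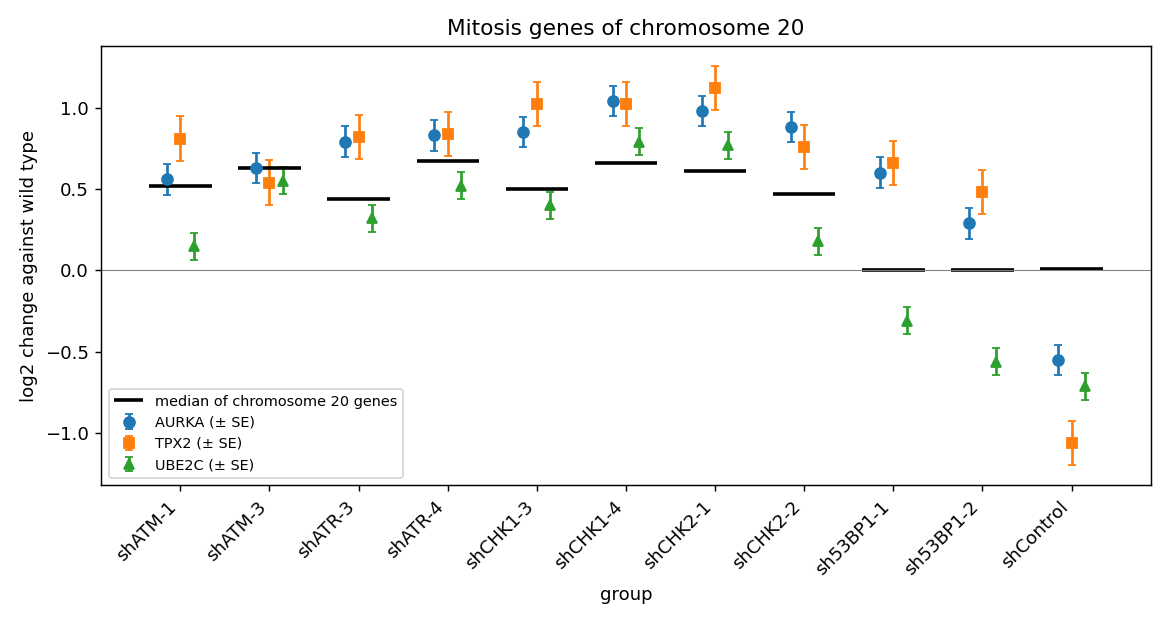
Log2 change against wild type, with SE, of the 3 members on chromosome 20 (AURKA circles, TPX2 squares, UBE2C triangles) in each group, and the median of all 304 genes of that chromosome as a black bar. The bars lie between 0.44 and 0.67 in the kinase lines and at 0.00 in the sh53BP1 lines, where AURKA and TPX2 lie above 0 and UBE2C below.

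CENPF, HMMR and NUSAP1 were lower than in wild type in all 8 kinase lines, where 17.6% of all genes were. No other member was, so the share of members was below that of all genes. This is no result about the members as a set. CENPF read between 6.70 and 7.99 (median 7.31) on the kinase line arrays and between 8.43 and 8.94 (median 8.78) on the sh53BP1 arrays, against 8.62, 8.86 and 8.65 in wild type. The kinase line arrays all lay below the wild type arrays, at 30.02% (shATR-4) to 50.13% (shCHK2-2) of the wild type level, while the sh53BP1 lines changed by 0.19 and -0.16 and passed no test. HMMR, a spindle assembly factor, read between 9.66 and 10.51 (median 10.14) in the kinase lines and between 10.77 and 11.03 (median 10.93) in the sh53BP1 lines, against 10.61, 10.73 and 10.50 in wild type. It was higher in sh53BP1-1 (log2 change 0.38, SE 0.125, adjusted p = 0.0119) and had 0.20 in sh53BP1-2, which was not called. NUSAP1, a microtubule bundler, changed by -0.77 to -0.28 in the kinase lines, and was also lower in sh53BP1-2. With the mean of all its probes NUSAP1 lost the call in shATR-3, shCHK1-3 and sh53BP1-2 (-0.20 to -0.09), and HMMR in shCHK2-2 (-0.23). CENPF was read by 1 probe, so the mean of all probes could not change its values. Under the other alternatives that held the kinase lines, CENPF kept its call in all 8. HMMR also lost its call in shCHK1-3, shCHK2-1 and shCHK2-2 without wild type replicate 2 (-0.29 to -0.27). CDC25C was lower in 9 lines, all but shCHK1-4 (-0.26), with changes down to -0.99. MKI67 was lower in 5 lines and TOP2A in 4, and neither was higher in any. MKI67 was read by 1 dim probe, with a mean of 6.21 over the 36 arrays. The ATR probe, never above background, had group means of 4.51 to 5.01. Leaving out 1 array ended the call of MKI67 in shATM-3, shATR-4, shCHK1-3 or sh53BP1-2 (-0.45 to -0.23), and that of TOP2A in no line. MKI67 read between 5.47 and 6.57 (median 6.23) in the kinase lines and between 5.77 and 6.35 (median 6.15) in the sh53BP1 lines, and TOP2A between 10.48 and 11.24 (median 10.98) and between 11.10 and 11.54 (median 11.35). FOXM1 read between 8.10 and 9.56 (median 8.47) in the kinase lines and between 8.55 and 8.85 (median 8.67) in the sh53BP1 lines, and passed in 1 line, shCHK1-4 (0.48).

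**Figure D5:**
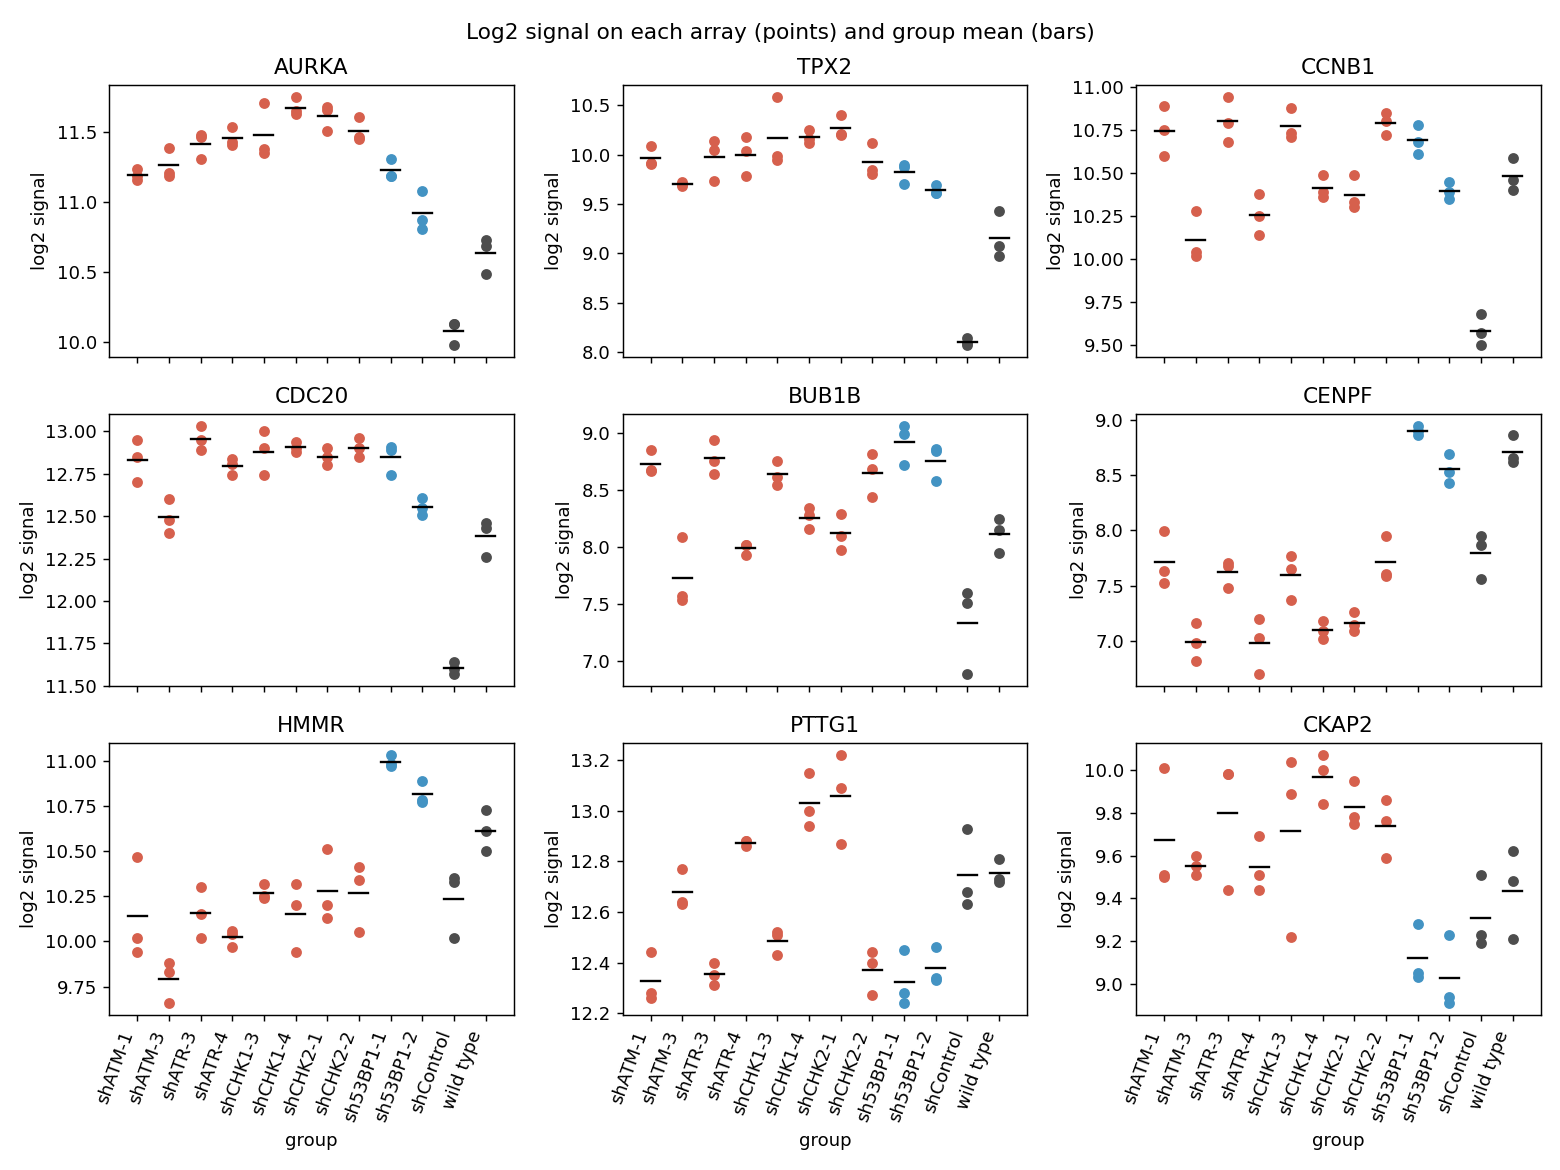
Log2 signal of 9 members on each of the 36 arrays (points; red kinase lines, blue sh53BP1 lines, grey controls) with group means (bars), lines to the left and wild type at the right. AURKA and TPX2 arrays of all lines lie above both controls, CENPF arrays of the kinase lines lie below wild type, and PTTG1 differs between hairpins of a target.

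Hairpins of the same target were set against each other. Between shATM-1 and shATM-3, 19 of 32 were higher (background 19.2%) and 2 lower (background 24.4%), with a median log2 change of 0.34. Between shATR-3 and shATR-4, 9 of 32 were higher (background 16.8%) and 3 lower (background 24.1%), with a median log2 change of 0.19. Between shCHK1-3 and shCHK1-4, 3 of 32 were higher (background 12.1%) and 5 lower (background 20.3%), with a median log2 change of -0.08. Between shCHK2-1 and shCHK2-2, 5 of 32 were higher (background 26.2%) and 8 lower (background 19.2%), with a median log2 change of 0.00. Between sh53BP1-1 and sh53BP1-2, 8 of 32 were higher (background 2.36%) and 0 lower (background 5.03%), with a median log2 change of 0.25. In each pair the change is that of the line named first. The count between the TP53BP1 hairpins fell to between 1 and 5 with any 1 of the 6 arrays left out, and that of lower members between the CHEK1 hairpins was 9 without shCHK1-3 replicate 2. With only the compared groups in the fit, the TP53BP1 hairpins had 0 members called higher (limma, 20 at an unadjusted p of 0.05) and the CHEK1 hairpins 1 called higher and 1 called lower.

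CCNA2, cyclin A2, differed in all 5 pairs. CCNA2 read 10.88, 10.71 and 10.68 in shATM-1, against 9.86, 9.89 and 10.02 in shATM-3 (log2 change 0.83, SE 0.092, adjusted p = 2e-08). CCNA2 read 10.87, 10.97 and 10.86 in shATR-3, against 9.95, 10.02 and 9.93 in shATR-4 (log2 change 0.93, SE 0.092, adjusted p = 2.02e-09). The arrays of the pairs did not overlap, and shATM-3 and shATR-4 were the lines with CCNA2 called below wild type, by -0.47 and -0.43. CCNA2 differed by 0.41 between the CHEK1 hairpins, by -0.68 between the CHEK2 hairpins and by 0.32 between the TP53BP1 hairpins. Against wild type, the median gene of its chromosome 4 changed by -0.31 and -0.36 in shATM-3 and shATR-4, and by -0.12 and -0.15 in shATM-1 and shATR-3. That median was -0.21 and -0.33 in shCHK1-3 and shCHK1-4, -0.38 and -0.06 in shCHK2-1 and shCHK2-2, and 0.03 in both sh53BP1 lines. The part of chromosome 4 in the CCNA2 result was not tested. BUB1B read 8.85, 8.67 and 8.68 in shATM-1, against 7.57, 7.54 and 8.09 in shATM-3 (log2 change 1.00, SE 0.152, adjusted p = 4.24e-06). BUB1B read 8.94, 8.76 and 8.64 in shATR-3, against 7.93, 8.02 and 8.02 in shATR-4 (log2 change 0.79, SE 0.152, adjusted p = 0.000111). This checkpoint gene was separate in both pairs and overlapped between the TP53BP1 hairpins. CCNB1 differed in all 5 pairs, by 0.64, 0.55, 0.36, -0.42 and 0.29 in the order of the pairs above. With only the compared groups in the fit, CCNA2 and CCNB1 were called in the ATM, ATR and CHEK2 pairs and not in the CHEK1 and TP53BP1 pairs. CENPF differed by 0.73, 0.64, 0.50 and -0.55 in the kinase line pairs. PTTG1 and UBE2C ran the other way in the kinase line pairs. PTTG1 averaged 12.49 ± 0.05 in shCHK1-3 and 13.03 ± 0.11 in shCHK1-4 (SD, n = 3 each; log2 change -0.54, SE 0.090, adjusted p = 2.64e-05). PTTG1 read 13.22, 12.87 and 13.09 in shCHK2-1, against 12.44, 12.40 and 12.27 in shCHK2-2 (log2 change 0.69, SE 0.090, adjusted p = 3.24e-07). Both pairs were separate, and shCHK1-4 and shCHK2-1 had PTTG1 above wild type. UBE2C differed by -0.40, -0.21, -0.39 and 0.59 in the kinase line pairs, and was not called in the ATR and CHEK1 pairs with only the compared groups in the fit. The median gene of its chromosome 20, against wild type, was 0.52 and 0.63 in shATM-1 and shATM-3. It was 0.44 and 0.67 in shATR-3 and shATR-4, 0.50 and 0.66 in shCHK1-3 and shCHK1-4, and 0.61 and 0.47 in shCHK2-1 and shCHK2-2. The part of chromosome 20 in the UBE2C result was not tested. AURKA was called in none of the kinase line pairs and TPX2 in 1 of them: AURKA differed by -0.07 and -0.04 (SE 0.094) in the ATM and ATR pairs, and TPX2 by -0.03 and 0.00 (SE 0.136) in the ATR and CHEK1 pairs. The CDK inhibitor CDKN1A moved with these pairs: it differed by -1.16, -1.42, -0.58, 0.87 and -0.46 in the same order, lower where CCNA2 was higher. Epithelial markers moved with the kinase line pairs too. The summed basal markers were 6111 to 7043 intensity units in shATM-1 against 12664 to 13688 in shATM-3, and 6334 to 7010 in shATR-3 against 15241 to 16906 in shATR-4. They were 6585 to 8076 in shCHK1-3 against 9165 to 10625 in shCHK1-4, and 12404 to 13115 in shCHK2-1 against 5252 to 5829 in shCHK2-2. The summed luminal markers were 1656 to 1866 in shATM-1 against 2681 to 3017 in shATM-3, and 1574 to 1691 in shATR-3 against 3967 to 4097 in shATR-4. They were 1842 to 1897 in shCHK1-3 against 2453 to 2562 in shCHK1-4, and 2429 to 2883 in shCHK2-1 against 1686 to 1967 in shCHK2-2. Both sums were thus lower in the line where CCNA2 was higher, while between the TP53BP1 hairpins they overlapped. The part of CDKN1A and of these markers in the result was not tested. Of 29 DNA replication and G1/S genes, 19 were higher and 0 lower between the ATM hairpins, and 19 higher and 2 lower between the ATR hairpins.

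Set against the 2 sh53BP1 lines, the 8 kinase lines had 13 members higher and 11 lower, with a median log2 change of 0.07. The background in this comparison was 38.2% higher and 37.2% lower, so the members' shares were near those of all genes. The SE and adjusted p (limma) in this comparison rest on the spread of replicate arrays within lines. They do not measure the spread between the 8 and the 2 lines. CENPF averaged 7.36 in the kinase lines and 8.72 in the sh53BP1 lines (log2 change -1.37, SE 0.076, adjusted p = 3.12e-16). UBE2C averaged 12.59 in the kinase lines and 11.69 in the sh53BP1 lines (log2 change 0.90, SE 0.046, adjusted p = 4.37e-17), where the median gene of its chromosome 20 differed by 0.52. UBE2C read between 12.18 and 12.98 (median 12.64) on the kinase arrays and between 11.55 and 11.83 (median 11.70) on the sh53BP1 arrays. Its arrays did not overlap between the 2 sets, nor did those of CENPF and HMMR (-0.77). The share of all genes without overlap was not computed, so this is no result about the members as a set. PLK1 read between 7.73 and 8.81 (median 8.37) in the kinase lines and between 8.73 and 9.21 (median 9.08) in the sh53BP1 lines (log2 change -0.65, SE 0.070, adjusted p = 1.57e-09), and the median gene of its chromosome 16 differed by -0.49. CKAP2 read between 9.22 and 10.07 (median 9.75) in the kinase lines and between 8.91 and 9.28 (median 9.04) in the sh53BP1 lines (log2 change 0.65, SE 0.094, adjusted p = 3.15e-07). The other probe of CKAP2 differed by 0.23, and the median gene of its chromosome 13 by 0.19. CDK1, CCNB1 and BUB1B differed by 0.14, -0.01 and -0.48, and CCNB1 was not called. Of the DNA replication and G1/S genes 6 of 29 were higher and 18 lower, with a median of -0.36.

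Probes bear on some of these values. The brightest probe stood for each gene, and 16 members had 17 further probes above the filter. In 278 comparisons of a called change with another probe of the same gene, 14 had the opposite sign, and 3 of these were called too: CDK1, NEK2 and KIF11, each in the kinase lines against the sh53BP1 lines. The directions of those 3 members in that comparison thus depend on the probe.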

How the data were processed

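The authors deposited, per the file headers, a signal intensity for each of 47231 probes on each of 36 Illumina arrays, with a detection p-value beside it, and a second table of log2 values. The signals were neither normalized nor background subtracted, judged from the deposited values, and the deposited log2 values matched quantile normalized log2 signals to within 0.0013. Total RNA was labelled with biotin, per the labels' protocols. Scanner, software and slide are not given in the sources used here.

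Intensities were background corrected, quantile normalized and logged with neqc of limma 3.58.1 (R 4.3.3, offset 16, negative controls inferred from detection p-values). Probes with detection p under 0.01 on each of the 3 arrays in some group were kept (18905, of which 4033 had no single gene), and the brightest probe stood for a gene, leaving 11048 genes. In limma, 1 mean per group (12 in all) was estimated from the 36 arrays together, and the moderated p-values of each of 27 contrasts were adjusted (Benjamini-Hochberg) over all genes, with a threshold of 0.05. The number of arrays per group, 3, limits the precision, and replicates are biological per the labels. Values in the text are on the log2 scale of these signals, and levels of different probes are not comparable. The script was tested on simulated data.

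The members, lists and the rule for named genes (all 32 members, and of other lists at most the 3 largest changes and the smallest 1 in shControl against wild type) were chosen with earlier results of these data known. No pairing by replicate number was seen, as residuals correlated at -0.000629 on average within a number and at 0.000385 between numbers. Results were also computed from the deposited log2 values, without background correction, without the filter, with the mean of all probes, only the compared groups, a replicate block, the 12 arrays without the kinase lines, and each array left out in turn. Figures used Python 3.11.15 and matplotlib 3.10.9.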

Additional observations from a re-analysis of the deposited data

Results flagged for a closer look

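Several members differed between hairpins of 1 target, by the limma test of that difference. For ATM, 21 of 32 members differed between shATM-1 and shATM-3, 19 higher and 2 lower, where 19.2% of all genes were higher and 24.4% lower. For ATR, 12 differed between shATR-3 and shATR-4, 9 higher and 3 lower (all genes 16.8% and 24.1%). For CHEK1, 8 differed between shCHK1-3 and shCHK1-4, 3 higher and 5 lower (all genes 12.1% and 20.3%). For CHEK2, 13 differed between shCHK2-1 and shCHK2-2, 5 higher and 8 lower (all genes 26.2% and 19.2%). For TP53BP1, 8 differed between sh53BP1-1 and sh53BP1-2, all of them higher (all genes 2.36% higher and 5.03% lower), and 0 differed with only the compared groups in the fit (limma, 20 higher at an unadjusted p of 0.05). Between the 8 kinase lines and the 2 sh53BP1 lines, 24 differed, 13 higher and 11 lower (all genes 38.2% and 37.2%). For the ATR, CHEK1 and CHEK2 pairs and for the kinase lines against the sh53BP1 lines, the share of members that differed in either direction was no higher than that of all genes, and is no result about the members.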

How the results depend on the processing

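Of 565 called member changes, the deposited log2 values kept all but 1 past the threshold, with a median ratio of 0.91 to the values above. No background correction likewise ended 1 call, no filter 28, the mean of all probes 23, only the compared groups 57, and the replicate block 5. Leaving out each array in turn ended 270 of 3966. Values moved by over 1.5 times for 29 of the 565 with the deposited log2 values, 29 without background correction, 40 with the mean of all probes and 25 of the 3966 with an array left out. FOXM1 in shCHK1-4 against wild type lost its call without the filter (0.48) and without wild type replicate 1 (0.39) or 3 (0.47) or shCHK1-4 replicate 1 (0.48) or 2 (0.42), and AURKB in sh53BP1-1 without the filter (0.32) and without any 1 of the 6 arrays (0.29 to 0.36). KIF11 in the kinase lines against the sh53BP1 lines reversed with the mean of all probes, to -0.04. The 8 members higher in sh53BP1-1 than in sh53BP1-2 became 4 without the filter, 0 with only the compared groups in the fit (20 at an unadjusted p of 0.05), 3 on the 12 arrays without the kinase lines, and 1 to 5 with 1 array left out. The cause was not tested. The 14 members higher and 9 lower in shCHK1-3 than in wild type became 9 and 5 with only the compared groups, the 3 lower in sh53BP1-1 than in wild type became 5, the 3 higher in shCHK1-3 than in shCHK1-4 became 1, and the 5 lower became 1, and 4 to 9 with 1 array left out (9 without shCHK1-3 replicate 2). In shControl against wild type, 30 members were lower on the 12 arrays without the kinase lines too, and 28 to 29 with 1 array left out. With the replicate block, 30 members were lower in shControl than in wild type, and 6 were higher in sh53BP1-1 than in sh53BP1-2. Arrays of 3 per group limit what small changes can be called.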
